A study of Mus musculus with 2 samples.

Results

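Cytochrome P450 (Cyp) genes encode heme enzymes that oxidise steroids, fatty acids, vitamins and foreign compounds, and many of them stand in clusters of close copies. The genes described here were the protein-coding genes of the GENCODE M21 annotation whose symbols are Cyp, digits, a letter and digits. There were 93 such symbols, and Cyp26a1 and Cyp26b1 were left out by the rule, which left 91 of the 21884 protein-coding genes with a unique symbol. Of the 91 members, 68 lay in 13 clusters, defined as members with gene bodies at most 200 kb apart, and 23 were single. The data were chromatin immunoprecipitation and sequencing (ChIP-seq) of CTCF in embryonic lung of B6NCrl mice, at 14.5 days. Male and female lungs of several dissections had been pooled, no treatment or mutation is labelled, and the 2 samples formed 1 group. As the samples share 1 biosample and 1 donor record, differences between replicates may be purely technical. ChIP-seq measures where a protein sat on DNA, so the values say nothing of how strongly a P450 gene was expressed.

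CTCF is a zinc finger protein that holds chromatin loops together with cohesin and blocks enhancers from acting across it. Its motif has a direction, and loops most often join motifs that point towards each other. Many P450 enzymes of the CYP1 to CYP4 families clear drugs, pollutants and fatty acids, and some of their subfamilies multiplied by repeated duplication in rodents. Members of the higher-numbered families make steroid hormones and bile acids, and activate or inactivate vitamin D. In the lung, club cells of the airway are known for P450 activity on inhaled chemicals, most of which appears late in development.

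A site here is the summit of a peak in the optimal list, the peaks that passed the authors' threshold on the irreproducible discovery rate (IDR), which compares peak ranks between replicates. That list held 54953 peaks, of which 54943 lay on assembled chromosomes, or 20.8 sites per Mb. Signal is the authors' value for each peak, with a median of 62.3 over all sites. Percentiles were taken within a list, and the lists were not scaled to each other. Each replicate list held 300000 peaks, so a site at about the 91st percentile of a replicate list is usual among optimal sites (medians 90.9 in replicate 1 and 91.0 in replicate 2). Without read counts in the files, sequencing depth is unknown. All positions are on mm10.

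The 20-base motif learned from the strongest sites had the consensus TNNCCACCAGGGGGCACNNN and lay within 50 bp of the summit at 60.2% of all sites, against 1.00% of windows shifted by 1 kb. The motifs below carry the main findings: promoter sites, copies in neighbouring genes, and the edges of the largest cluster. Each is read in the direction in which the G-rich strand runs 5′ to 3′, and the 12-base core is in capitals. Sequence was read from the RefSeq copy of GRCm38.p6, which has the chromosomes of mm10.
Cyp1b1 promoter: tgtCCAGCAGGTGGCagagt
Cyp21a1 promoter: cggCCAGAAGAGGGCagtgg
Cyp1a1 promoter: gggCCAGAAGGGGGCatcaa
Cyp4f17 3′ UTR: gagCCATCAGAGGGCgctgc
Cyp4f16 3′ UTR: gagCCATCAGAGGGCgctgc
Cyp4f14 3′ UTR: gagCCAGCAGGGGGCgctgt
Cyp4f37 3′ UTR: acgCCAGCAGGGGGCgctag
Cyp4f15 3′ UTR: ataCCAGTAGGGGGCgctgg
Cyp4f41-ps exon: gtaCCAGCAGGGGGCgcggt
Cyp2b10, Cyp2b13, Cyp2b19 and Cyp2b9 introns: cagACACTAGAGGGCaggcc
Cyp2b27-ps intron: cagACACCAGAGGGTgggct
Cyp2b23 intron: cagACACCAGAGAGTaggcc
Cyp2d9 intron and its intergenic copy: tggCCAGTGGGTGGCagtgg
Cyp2c cluster, left edge: catCCACTAGAGGGCgggct
Cyp2c cluster, right edge: cagCCAGCAGGTGGCagtgt

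CTCF stood near the transcription start sites (TSSs) of few P450 genes, and most of those were single genes. In 9 of 91 members, or 9.89% (95% Wilson interval 5.29 to 17.7), the TSS had a site no more than 1 kb away, beside 26.6% of all protein-coding genes. Among the 68 clustered members the count was 2, Cyp1a1 and Cyp2j9, or 2.94% (0.810 to 10.1). Among the 23 single members it was 7, or 30.4% (15.6 to 50.9), close to the 26.6% of all protein-coding genes. The single genes were Cyp1b1, Cyp21a1, Cyp24a1, Cyp27a1, Cyp2r1, Cyp2u1 and Cyp46a1. These shares are descriptions without a test, since the genes were chosen with earlier results of these data known. The intervals cover counting error and treat genes as independent, although members of a cluster share sequence and neighbourhood.

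Clustered members were also below single members in the full list of 300000 pooled peaks, most of which did not pass the threshold. Pooled peaks of any strength came this close to the TSS in 11 of 68 clustered members (16.2%) and 14 of 23 single members (60.9%), beside 62.0% of all protein-coding genes. The median distance from a TSS to the nearest site was 39.6 kb for clustered members, 2.30 kb for single members and 6.72 kb for all protein-coding genes. Base composition differed along with these shares. The median promoter, taken from 250 bases before to 50 bases after the TSS, held 2 CpG dinucleotides in clustered members, 6 in single members and 11 in all protein-coding genes. The 9 members with a site had a median of 15 CpGs, the 16 single members without one had 5 and the 66 clustered members without one had 2. All protein-coding genes showed a difference in the same direction, with 19 CpGs where a site was present and 7 where it was not. The part of base composition in the promoter counts was not tested.

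**Figure D1:**
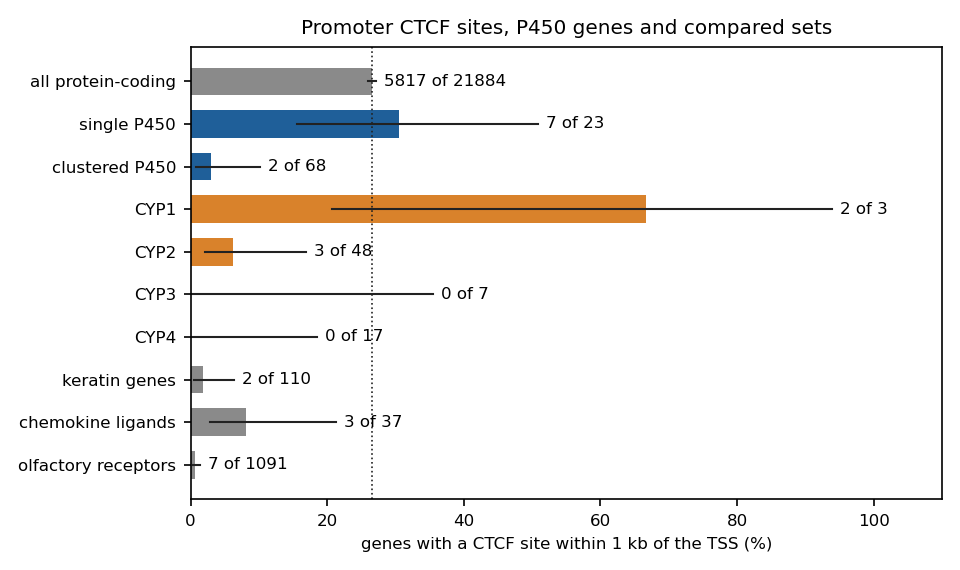
Share of genes with a CTCF site within 1 kb of the TSS (x axis, percent) for all protein-coding genes, P450 members and compared sets. Black lines are 95% Wilson intervals and the dotted line marks 26.6%. The clustered P450 genes sit at 2 of 68, below the line, and the single P450 genes at 7 of 23, near it.

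The strongest promoter site was that of Cyp1b1, an aryl hydrocarbon-inducible oxidase that is active outside the liver. Its summit lay 698 bp upstream of the TSS, and its signal was 287 (93.2nd percentile) in the optimal list, 158 in replicate 1 and 128 in replicate 2. The motif at chr17:79715730-79715749 lay on the minus strand, and no gene body covered the summit. The next was at Cyp24a1, which inactivates the vitamin D hormone. That summit lay 319 bp upstream of the Cyp24a1 TSS, inside an intron of the neighbouring gene Pfdn4 and 1036 bp from the Pfdn4 TSS. Its signal was 118 in the optimal list, 69.1 in replicate 1 and 50.7 in replicate 2, with no motif match. Both sites stood high in both replicates, at the 98.8th and 98.7th percentiles for Cyp1b1 and the 94.4th and 93.9th for Cyp24a1.

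Cyp1a1, the main inducible oxidase of polycyclic aromatic hydrocarbons, carried a site in its own intron, 324 bp downstream of the TSS. The signal was 81.0 in the optimal list, 41.1 in replicate 1 and 41.7 in replicate 2, and the motif at chr9:57688258-57688277 read with the gene. Its partner Cyp1a2, a liver oxidase, had no site within 1 kb. The nearest site to the Cyp1a2 TSS was the same intronic site, 4.55 kb upstream. At the third CYP1 gene, Cyp1b1, the site lay upstream, as given above, so 2 of the 3 CYP1 genes had a promoter site (interval 20.8 to 93.9%), beside 26.6% of all protein-coding genes.

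Cyp2j9 belongs to a group of arachidonic acid oxidases and had 2 sites on either side of its TSS. The stronger lay 306 bp upstream, and its signal was 46.8 in the optimal list, 30.4 in replicate 1 and 15.3 in replicate 2. The weaker lay 254 bp downstream in a coding exon, with a signal of 19.3, and it was absent from the conservative list. That is the other thresholded list, with 53112 peaks, and sites were matched to it by exact start and end. It gave 10 members with a promoter site beside 9 here, so it is not a subset of the optimal list. A site called absent may thus be listed there with other bounds. The weaker Cyp2j9 site differed between replicates, at the 85.1st percentile of replicate 1 and the 60.6th of replicate 2. Neither site had a motif match.

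The remaining promoter sites were weaker than the median of all sites, or close to it. At Cyp2r1, which starts vitamin D activation in the liver, the signal was 63.8 in the optimal list, 34.7 in replicate 1 and 28.6 in replicate 2. At Cyp21a1, the steroid hydroxylase of the adrenal cortex, it was 43.6, with 18.3 and 25.8 in the replicates. The Cyp21a1 motif lay on the minus strand at chr17:34805385-34805404, about 0.818 kb upstream of the TSS. The site of Cyp2u1, a fatty acid hydroxylase, had 43.2 in the optimal list, 20.5 in replicate 1 and 20.3 in replicate 2. Cyp46a1, the cholesterol hydroxylase of neurons, had 32.5, with 14.0 and 16.6 in the replicates. Cyp27a1, a mitochondrial sterol hydroxylase of bile acid synthesis, had 27.5, with 12.7 and 13.3. Of the 10 promoter sites, 3 had the motif (Cyp1b1, Cyp21a1 and Cyp1a1), or 30% (interval 10.8 to 60.3), beside 60.2% of all sites. In the conservative list with the same bounds were 9 of the 10 (90%, 59.6 to 98.2), beside 87.5% of all sites. None of the 10 had its summit in soft-masked sequence, the lower-case part of the assembly that marks repeats. The upper bound was 27.8%, and 19.6% of all sites had such a summit.

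**Figure D2:**
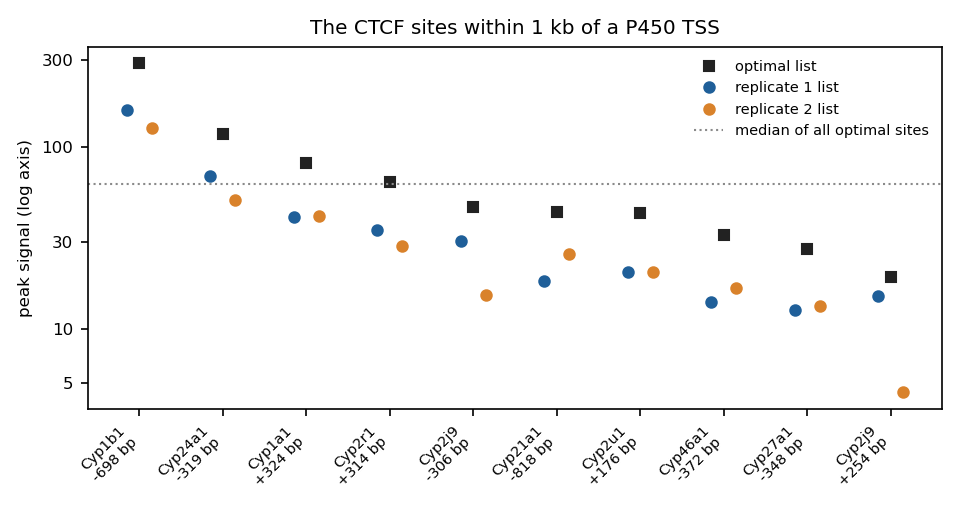
Signal of the 10 sites within 1 kb of a P450 TSS (y axis, log scale) in the optimal list and in each replicate list, with the distance to the TSS under each gene. The Cyp1b1 site is the highest in all 3 lists, and the weaker Cyp2j9 site is the lowest in replicate 2.

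The 1 kb limit decided few genes. Just inside it were Cyp1b1 at 698 bp and Cyp21a1 at 818 bp. Just outside were Cyp2w1 at 1094 bp (signal 46.9), Cyp26c1, which degrades retinoic acid, at 1589 bp (94.8), Cyp27b1 at 1691 bp (51.0) and Cyp7b1 at 2025 bp (34.5). Cyp27b1 makes the active vitamin D hormone, so all 3 vitamin D genes of the list had a site within 2 kb, as had 33.1% of all protein-coding genes.

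By biological role, promoter sites were present at 2 of 3 vitamin D genes (Cyp24a1 and Cyp2r1), 2 of 6 genes of bile acid and cholesterol turnover (Cyp27a1 and Cyp46a1), 1 of 6 genes of steroid synthesis (Cyp21a1) and 2 of 8 lung and airway genes (Cyp1a1 and Cyp1b1). The Wilson intervals were 20.8 to 93.9%, 9.68 to 70.0%, 3.01 to 56.4% and 7.15 to 59.1%, and each includes the 26.6% of all protein-coding genes. Cyp7a1, the rate-limiting enzyme of bile acid synthesis, had its nearest site 17.6 kb from the TSS. The nearest site of Cyp8b1, which steers synthesis to cholic acid, was 12.5 kb away and strong, with a signal of 278. Cyp39a1, an oxysterol hydroxylase, had its nearest site 8.99 kb away, within a gene body that held 5 sites. Among the steroid genes, Cyp17a1 had a site of signal 249 at 2.30 kb and Cyp11a1, which cleaves the cholesterol side chain, a site of 214 at 7.85 kb. Cyp19a1, the aromatase, had its nearest site 48.5 kb from the TSS.

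The airway genes without a promoter site varied widely in their distance to CTCF. Cyp2f2, the naphthalene oxidase of club cells, had its nearest site 8.46 kb downstream of the TSS, with a signal of 183, and 3 sites inside the gene. Cyp2b10, an inducible drug oxidase, likewise held 3 sites in its gene, the nearest 5.74 kb from the TSS. Cyp2s1, an oxidase of epithelia, had a site of signal 211 in an exon, 11.2 kb downstream of the TSS. Distances were larger for Cyp2a5 (56.6 kb), Cyp4b1 (62.3 kb) and Cyp2e1 (42.2 kb).

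Promoter sites were few in the large families. No member of CYP3 (0 of 7, Wilson upper bound 35.4%) or CYP4 (0 of 17, upper bound 18.4%) had a promoter site, and CYP2 had 3 of 48 (6.25%, 2.15 to 16.8), beside 26.6% of all protein-coding genes. The CYP3 interval includes that share. Among the 15 Cyp2c genes and 8 Cyp2d genes the count was 0. The 9 protein-coding Cyp genes outside the rule also had none. A list of 24 genes that are not members covered partners and regulators of P450 enzymes and further P450 genes. Of these 24, 5 had a promoter site (20.8%, interval 9.24 to 40.5), beside 26.6% of all protein-coding genes. Of the 8 genes for redox partners and heme supply, the gene with a site was Cyb5r3, an electron donor, and the P450 reductase gene Por had none. Of the 13 regulators there were 4, the nuclear receptor genes Nr1h3, Nr1i2, Ppara and Rxrb. The list also held 3 P450 genes that the symbol rule does not take, and none of them had a site. One of them, Cyp51, is also among the 9 Cyp genes above.

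Pooled over the clusters, CTCF sites were sparser inside than in the flanks. The 13 clusters together spanned 4.36 Mb and held 42 sites, or 9.63 per Mb. Their flanks, 100 kb on each side, spanned 2.60 Mb and held 82 sites, or 31.5 per Mb. The 7 chromosomes that carry the clusters had 25.3 sites per Mb, and the genome 20.8. The pattern was not uniform. Neither flank of Cyp3a57 to Cyp3a16 held a site. A flank was also empty at Cyp4x1 to Cyp4a29, Cyp4a14 to Cyp4b1, Cyp3a44 to Cyp3a59, Cyp2s1 to Cyp2a4 and Cyp2b23 to Cyp2t4. Each of these flanks faced the next P450 cluster. The gaps were 232 kb (Cyp4a29 to Cyp4a14), 304 kb (Cyp3a16 to Cyp3a44) and 350 kb (Cyp2a4 to Cyp2b23). Genes that the rule leaves out have TSSs in the Cyp4a gap (Cyp4a12a, Cyp4a12b and Cyp4a30b) and the Cyp3a gap (Cyp3a41a and Cyp3a41b). Density exceeded that of the genome in 3 clusters (both Cyp4f clusters and Cyp1a) and lay below it in the other 10, of which 4 held no site.

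The clusters were made of sequence that recurs elsewhere. Of the 32-base words inside them, 63.6% occurred once in the genome, beside 76.0% in the flanks and 81.0% over the genome. How the authors placed reads that match several copies is not given in the sources used here. Counted per Mb of words that occur once, density was 15.1 sites inside, 41.5 in the flanks and 25.6 over the genome, so the pooled order was the same. By cluster it was not, since Cyp2s1 to Cyp2a4 (33.3) and Cyp2b23 to Cyp2t4 (29.8) then exceeded the genome value too, which made 5 clusters above it. Around the TSSs of clustered members the median share of such words was 86.9%, beside 98.0% for all protein-coding genes. Under 50% of the words were unique at 7 of the 68 (10.3%), beside 6.79% of all protein-coding genes. Soft-masked sequence made up 50.4% of the clusters, 39.6% of the flanks and 36.4% of the genome. The full pooled list also thinned out inside, with 46.5 peaks per Mb beside 148 in the flanks and 113 over the genome. The part of read placement in the lower density was not tested.

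**Figure D3:**
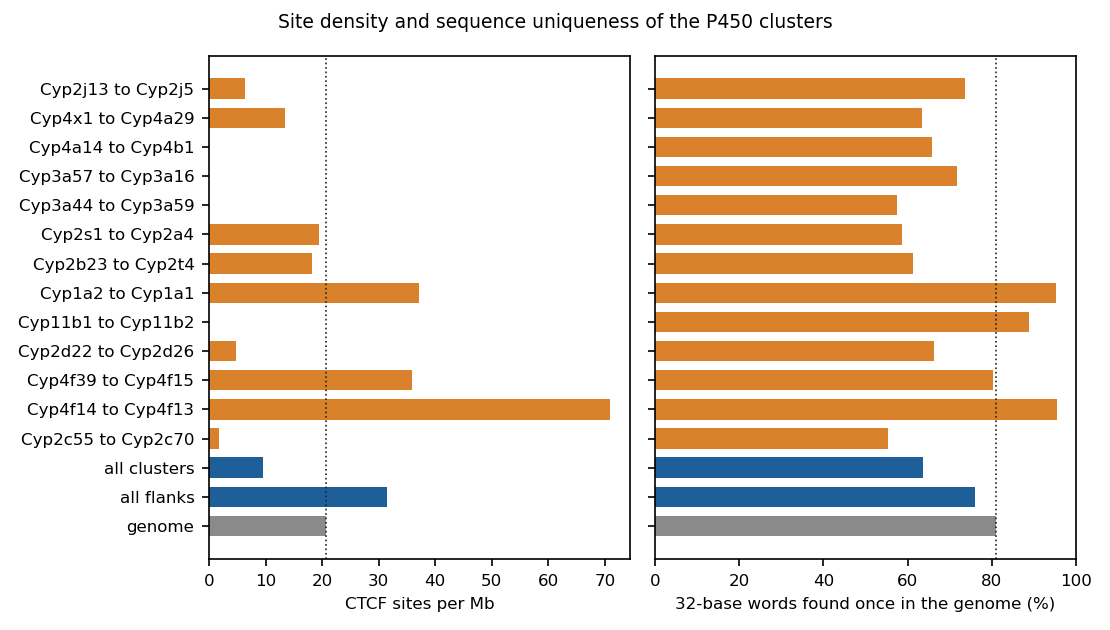
Sites per Mb (left) and share of 32-base words that occur once in the genome (right) for each cluster, all clusters, all flanks and the genome. Dotted lines mark the genome values of 20.8 per Mb and 81.0%. The Cyp2c cluster has 1.69 sites per Mb and 55.3% unique words, and the Cyp2s1 to Cyp2a4 cluster has 19.5 per Mb with 58.6%.

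The sites inside clusters were of ordinary strength. Their signals ran from 7.54 to 292 with a median of 66.1, and the median percentile was 51.8. The motif was present at 30 of 42 (71.4%, interval 56.4 to 82.8) and at 58 of 82 flank sites (70.7%, 60.1 to 79.5), beside 60.2% of all sites. Of the 42, 34 were in the conservative list with the same bounds (81.0%, 66.7 to 90.0), beside 87.5% of all sites. Summits in soft-masked sequence numbered 6 (14.3%, 6.72 to 27.8), beside 19.6% of all sites. By position, 24 of the 42 lay in a member gene (7 in exons and 17 in introns), 4 in other genes and 14 between genes. Over the genome 53687 of the 54943 sites were listed in both replicates. Of the 42 sites inside clusters 41 were, with a median gap between their replicate percentiles of 0.715 points, beside 0.972 for all sites. The other, a Cyp4f13 site of signal 7.54, had no peak in the replicate 1 list. The largest gap was 47.9 points, in the Cyp2c cluster.

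**Figure D4:**
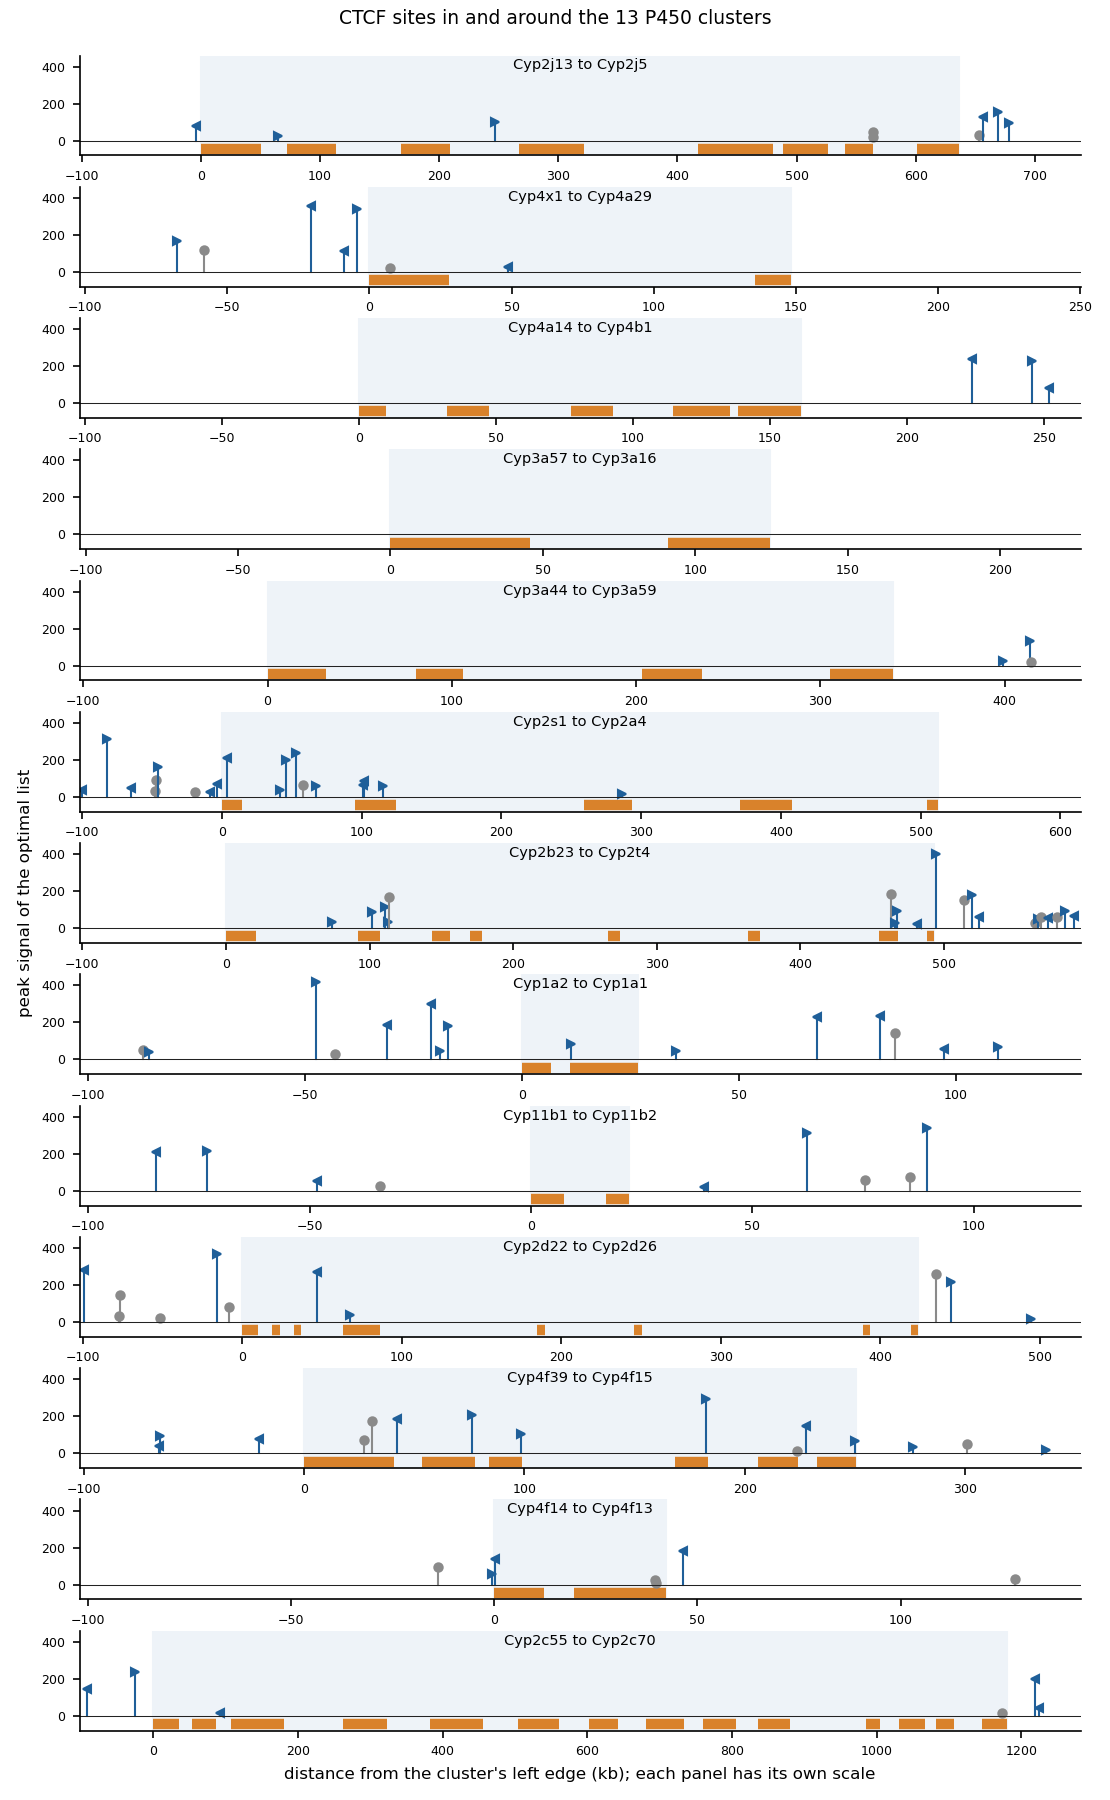
The 13 clusters, each from 100 kb left to 100 kb right of its members (x axis, kb from the left edge, shaded inside). Stems give site signal, blue triangles point right for a motif on the plus strand and left for the minus strand, gray dots have no motif match, and orange bars are member genes. The Cyp3a clusters and the Cyp4a14 to Cyp4b1 cluster hold no site, and the Cyp4f39 to Cyp4f15 cluster holds 9.

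The Cyp2c cluster, whose enzymes oxidise drugs and arachidonic acid, was the longest and among the emptiest. It spanned 1180 kb at chr19:39007019-40187333, with 14 genes and 2 sites. One of those sites lay in an intron of Cyp2c70 with a signal of 16.5, and the other, also 16.5, lay between genes at the opposite end. Both were at the 3.7th percentile of the optimal list, and neither was in the conservative list with the same bounds. The replicates differed at both. The Cyp2c70 site was at the 46.8th percentile of replicate 1 and the 84.8th of replicate 2, and the other site at the 36.6th and the 84.5th. Between them ran 1082 kb without a site, a stretch that took in the TSSs of 11 genes. Among 54923 intervals between neighbouring sites, 155 (0.282%) were as long, and the median interval was 16.4 kb. The pooled list held 17 peaks in the cluster, or 14.4 per Mb beside 113 over the genome.

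Strong sites stood on either side of Cyp2c. The nearest on the left lay 24.9 kb outside the Cyp2c55 edge with a signal of 237 (125 in replicate 1 and 111 in replicate 2), in an intron of the pseudogene Cyp2c52-ps. The nearest on the right lay 38.3 kb outside the Cyp2c70 edge with a signal of 198 (108 and 89.8). The left motif, chr19:38982161-38982180, was on the plus strand and the right motif, chr19:40225612-40225631, on the minus strand, so they pointed towards each other across the cluster. This arrangement was not the rule among the 7 clusters with a motif-bearing site within 100 kb of both edges. The nearest such motifs faced each other in 2 (Cyp2c, and Cyp4f14 to Cyp4f13), faced apart in 1 and ran in the same direction in 4. Without the distance limit the counts over all 13 clusters were 3, 2 and 8.

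The Cyp3a genes are the main drug oxidases of liver and gut. All Cyp3a members but Cyp3a13 formed 2 clusters on chromosome 5 without a site. Cyp3a13 was a single gene on that chromosome and held 2 sites, the nearest 6.90 kb from its TSS with a signal of 30.1. Cyp3a57 to Cyp3a16 (chr5:145345279-145469723) had no site within 100 kb of either edge, and its nearest, on the left, lay 110 kb away with a signal of 83.4. Cyp3a44 to Cyp3a59 (chr5:145773983-146113287) had none in the left flank and 3 in the right, the nearest 59.7 kb outside with a signal of 24.9. Both clusters lay in a single stretch of 938 kb without a site. The clusters were parted by the gap of 304 kb between Cyp3a16 and Cyp3a44, where the rule leaves out Cyp3a41a and Cyp3a41b.

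The fatty acid hydroxylases of the Cyp4a group lay in a similar stretch on chromosome 4, which ran for 555 kb. Cyp4a14 to Cyp4b1 (chr4:115486200-115647723) held 5 genes and no site, and its nearest site was 62.3 kb to the right, with a signal of 239 (126 in replicate 1 and 110 in replicate 2). Cyp4x1 to Cyp4a29 (chr4:115106323-115254557) held 2 sites, with signals of 22.1 in an intron of Cyp4x1 and 27.8 in an intron of the pseudogene Cyp4a28-ps. Its left flank was dense, with 5 sites and the nearest 4.52 kb outside at a signal of 337. The adrenal pair Cyp11b1 and Cyp11b2 (chr15:74834125-74856318), which complete the synthesis of corticosterone and aldosterone, held no site in 22.2 kb and had 4 and 5 sites in the flanks. The nearest of those were 34.2 kb to the left (27.8) and 16.8 kb to the right (19.1).

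Cyp2j13 to Cyp2j5 (chr4:96027534-96664154) held 8 genes in 637 kb and 4 sites. The strongest, at 98.9 (57.4 in replicate 1 and 40.6 in replicate 2), lay in an exon of the pseudogene Cyp2j15-ps with its motif against the gene, and 2 were the Cyp2j9 promoter sites. Its nearest outer sites were 4.53 kb to the left (77.7) and 16.3 kb to the right (32.6). The Cyp1a pair (chr9:57676937-57703824) held the Cyp1a1 site alone and was closely flanked, with 8 sites on the left and 6 on the right. The nearest were 17.0 kb to the left (183) and 8.57 kb to the right (43.9).

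The 2 clusters on chromosome 7, a mixed array of Cyp2 subfamilies, had 19.5 and 18.2 sites per Mb, below both Cyp4f clusters and Cyp1a. Together they held 19 sites in 1.01 Mb, or 18.9 per Mb, while the 11 other clusters held 23 in 3.36 Mb, or 6.85 per Mb. The sites were bunched, and a stretch of 650 kb from Cyp2b13 to beyond Cyp2b23 had none. In Cyp2s1 to Cyp2a4 (chr7:25802475-26315088) there were 10 sites, the strongest between genes with a signal of 235, and 9 had the motif. Its left flank held 9 sites, the nearest 3.73 kb outside (67.6), and its right flank none. In Cyp2b23 to Cyp2t4 (chr7:26665227-27158668) there were 9 sites. The strongest lay in an intron of Cyp2f2 with a signal of 183 (91.4 in replicate 1 and 89.4 in replicate 2) and no motif match. Its left flank held no site and its right flank 11. Of the sites nearest to a cluster edge, the strongest of all 13 clusters stood there, 1.33 kb beyond Cyp2t4 in an intron of Egln2, with a signal of 401 (225 and 174), at the 99.2nd percentile.

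A motif recurred letter for letter in introns of the Cyp2b genes on chromosome 7, with unequal peak signal. The 20 bases cagACACTAGAGGGCaggcc occurred 5 times in the genome. A site stood on 3 of them, in Cyp2b10 (chr7:25917456-25917475), Cyp2b13 (chr7:26088769-26088788) and Cyp2b19 (chr7:26767272-26767291). Signal was 87.8 at Cyp2b19 (50.2 in replicate 1 and 37.0 in replicate 2), 57.6 at Cyp2b10 (37.4 and 19.7) and 17.9 at Cyp2b13 (12.7 and 5.63). The order was therefore the same in both replicates. The Cyp2b13 site was at the 5.62nd percentile of the optimal list and was not in the conservative list with the same bounds. The copy in Cyp2b9 (chr7:26201259-26201278) had a pooled peak with a signal of 12.8 but no optimal site. These 4 copies all read with their gene. The fifth copy (chr7:25988482-25988501) lay between genes in the Cyp2s1 to Cyp2a4 cluster, which also holds Cyp2b10, Cyp2b13 and Cyp2b9, and had no site.

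Around the motif the copies differed. Over 120 bases Cyp2b13 was 96.7% identical to Cyp2b10, Cyp2b9 90.0% and Cyp2b19 70.8%. Of the 32-base words within 100 bp of the motif, 89.4% occurred once in the genome at Cyp2b19, 62.9% at Cyp2b9, 45.9% at Cyp2b10 and 42.4% at Cyp2b13. Signal was 87.8 at Cyp2b19, 57.6 at Cyp2b10 and 17.9 at Cyp2b13, and Cyp2b9 had no optimal site. The Cyp2b27-ps copy has 4 mismatches to the Cyp2b10 motif and a pooled peak of 14.6, and the same 20 bases at Cyp2b26-ps have no peak. The Cyp2b23 copy has 3 mismatches, falls below the motif threshold and has no peak. A motif with 1 mismatch, cagACACTAGAGGGCagtcc, lay under a site of signal 31.1 in an intron of Gm45034, in the Cyp2b23 to Cyp2t4 cluster that holds Cyp2b19. The part of read placement in these signals was not tested.

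The Cyp4f genes encode hydroxylases of leukotrienes and long-chain fatty acids. All but Cyp4f18, a single gene on chromosome 8, lay in 2 clusters denser in sites than the genome. Cyp4f39 to Cyp4f15 (chr17:32452723-32703352) held 9 sites in 251 kb, or 35.9 per Mb, and Cyp4f14 to Cyp4f13 (chr17:32905070-32947402) held 3 in 42.3 kb, or 70.9 per Mb. The nearest outer sites were 20.6 kb to the left (77.0) and 25.9 kb to the right (35.1) of the former. Those of the latter were 0.474 kb to the left (55.8) and 4.25 kb to the right (183). The clusters were 202 kb apart, just over the 200 kb that the rule allows. Of the 3 sites in Cyp4f14 to Cyp4f13, 2 were overlapping peaks, and the weaker (7.54) had no replicate 1 peak.

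In 5 of the Cyp4f genes the site lay in the 3′ untranslated region (3′ UTR), between 327 and 1175 bp from the annotated end of the gene. The strongest was in Cyp4f37 with a signal of 292 (159 in replicate 1 and 133 in replicate 2), followed by Cyp4f17 with 208 (115 and 93.1). Cyp4f14 had 136 (73.2 and 60.8), Cyp4f16 105 (54.7 and 49.0) and Cyp4f15 65.1 (38.6 and 25.5). The order was the same in both replicates. All 5 had the motif, and in all 5 its G-rich strand was the strand of the gene, for Cyp4f14 the minus strand and for the others the plus strand. An exon of the pseudogene Cyp4f41-ps, 4.25 kb outside the Cyp4f13 edge and 686 bp from its own 3′ end, carried a site of the same kind. Its signal was 183 (103 and 77.2), and its motif also read with the gene.

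The motifs of Cyp4f17 (chr17:32528959-32528978) and Cyp4f16 (chr17:32551298-32551317) were the same 20 bases, and these 2 copies were the only ones on the assembled chromosomes. Over 120 bases the genes were 93.3% identical, and 89.4% of the 32-base words around each motif occurred once. The motifs of Cyp4f37 (chr17:32635234-32635253), Cyp4f15 (chr17:32703033-32703052) and Cyp4f14 (chr17:32905392-32905411) lay in sequence in which every word within 100 bp occurred once (100%). The Cyp4f14 motif has 3 mismatches to that of Cyp4f17. The other clustered Cyp4f members had no 3′ UTR site. Cyp4f40 had a weak intronic site of 14.6 without a motif, 614 bp from its end. Cyp4f39 had 2 intronic sites of 177 and 73.5, and Cyp4f13 had 2 of 24.1 and 7.54. The single gene Cyp4f18 held no site. Its nearest, with a signal of 20.2, lay just beyond the gene's end, 21.3 kb downstream of the TSS.

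Counted by distance alone, a site lay within 1 kb of the 3′ end of 6 of 9 Cyp4f genes (66.7%, interval 35.4 to 87.9): Cyp4f14, Cyp4f15, Cyp4f16, Cyp4f18, Cyp4f37 and Cyp4f40. Over all 91 members the count was 8 (8.79%), with Cyp2f2 and Cyp3a13 as the rest, beside 8.82% of all protein-coding genes. The members as a whole were thus at the background. This count was chosen after the Cyp4f values were seen, so the Cyp4f share is a description of these genes.

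**Figure D5:**
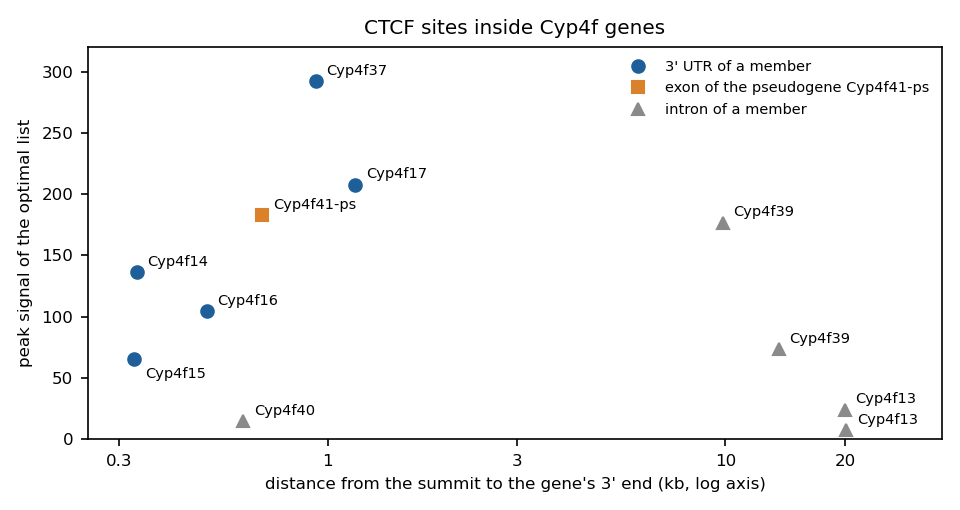
Sites inside Cyp4f genes by distance from the summit to the gene's 3′ end (x axis, kb, log scale) and signal in the optimal list (y axis). The 5 sites in 3′ UTRs and the site of the pseudogene Cyp4f41-ps lie within 1.175 kb of the end with signals of 65.1 to 292.

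In the Cyp2d cluster (chr15:82370527-82794294), whose enzymes oxidise basic drugs, 8 genes in 424 kb held 2 sites, and both carried the same 20 bases. The copy between genes (chr15:82417711-82417730, minus strand) had a signal of 268 (143 in replicate 1 and 124 in replicate 2). The copy in an intron of Cyp2d9 (chr15:82438045-82438064, plus strand) had 37.5 (26.8 and 13.6). The intergenic site was thus the stronger in both replicates. The copies pointed away from each other, were 81.7% identical over 120 bases and were nearly unique in sequence (98.2% of words at both). These 20 bases occurred nowhere else in the genome. The nearest sites outside were 8.57 kb to the left (78.6) and 11.2 kb to the right (259).

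The core of the Cyp21a1 promoter motif, whose site had no soft-masked summit, was frequent in the flanks. CCAGAAGAGGGC was the most common 12-base core over the genome, present at 15.6% of motif-bearing sites whose sequence was read and at 54.5% of those with a soft-masked summit. Rodent B2 repeats are known to have spread a CTCF motif. Inside the clusters 2 of 30 motif-bearing sites had this core, both between Cyp2s1 and Cyp2b10, and in the flanks 15 of 58 did, of which 14 were soft-masked. The flank sites with it had a median signal of 55.8.

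Other clustered families gave a range of densities by the same rules. Keratin genes had 28.1 sites per Mb inside their clusters and 58.3 in the flanks, chemokine ligand genes 25.6 and 40.0, and olfactory receptor genes 4.42 and 34.6. The P450 clusters, with 9.63 inside, lay between the olfactory receptors and the chemokines, and their flanks, with 31.5, were the least dense of these. Flank density was above inside density in all 4 sets. Promoter sites were present at 2 of 110 keratin genes (1.82%) and 3 of 37 chemokine ligand genes (8.11%). Olfactory receptor genes had them at 7 of 1091 (0.642%). The Wilson upper bounds were 6.39%, 21.3% and 1.32% in that order, each below the 26.6% of all protein-coding genes. Among P450 members the share was 2.94% for clustered genes and 30.4% for single genes. None of these differences was tested.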

How the data were processed

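The deposited files are narrowPeak lists on mm10: 1 for each of 2 replicates, 1 from pooled reads, and optimal and conservative IDR lists. The signal value was taken as the authors deposited it. The sources used here name no aligner, peak caller or IDR threshold. The replicate lists share 1 control, per the deposited README files.

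Summits were intersected with GENCODE M21 genes (55413, 1 TSS each). The motif matrix was grown from a 9-base seed in 15 rounds on the strongest 3000 sites of odd-numbered autosomes, dropping the lowest 30%, and its threshold let 1% of shifted windows pass. Uniqueness used 32-base words on either strand, every 1000th base for the genome and every 20th at TSSs. Counting and scanning were tested on simulated data. Motif sequence on chromosome 18 was not read. No differences were tested, as there is 1 group.

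The members and lists were chosen with earlier results of these data known. Genes were named where they had a promoter site, belonged to a role list or marked a cluster, its strongest site and its edges; genes named for recurring motifs and 3′ ends were chosen after their values were seen. Alternatives covered peak lists, replicates, windows, cluster and flank sizes and motif rules. Python 3.11.15, numpy 2.4.6, pandas 2.3.3, numba 0.67.0 and matplotlib 3.10.9 were used.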

Additional observations from a re-analysis of the deposited data

How the results depend on the processing

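Of 85 alternative values for 8 results, 64 stayed within 1.5 times the reported count, within its interval, or within the replicate spread. The strongest 10000 sites gave 1 member with a promoter site (0 clustered, 1 single; 4.28% of all protein-coding genes), 6 sites inside clusters and 20 in flanks, a median percentile of 22.4 within those 10000, and the motif at 100% inside and 95% in flanks. A 5 kb window gave 17 members, 5 clustered and 12 single (44.8% of all protein-coding genes), and every transcript start gave 15 members, 5 of them clustered (34.4%). Flanks of 50 kb held 42 sites and flanks of 200 kb held 188. The median percentile inside clusters was 54.8 in the conservative list, 57.7 among the strongest pooled peaks and 54.7 to 57.5 with either replicate left out. The textbook core consensus, at 14.7% of all sites, was met by 21.4% inside and 23.2% in flanks. With either replicate left out, sites were the other's strongest peaks, as many as in the optimal list, without an IDR step. The strongest pooled peaks were taken in the same way. The list size was thus fixed, which limits how far such counts can move. With either replicate left out, 36 to 39 sites lay inside and 88 in flanks. In both cases 10 members had a promoter site (2 clustered, 8 single), beside 26.9% and 27.3% of all protein-coding genes. Building clusters with every gene named Cyp was added after the data were seen and gave 44 sites inside 12 clusters (8.95 per Mb) and 88 in flanks (36.7 per Mb). No paired analysis was possible because the 2 samples form 1 group. Depth is unknown, so a weak site missed for lack of reads cannot be told apart from a place without CTCF.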
